A study of Mus musculus with 8 samples.

Results

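Sebum is made by the cells of the sebaceous gland, and 9 genes of its wax, sterol and lipid synthesis were read out in bulk RNA-seq libraries of mouse dorsal skin. They are Scd3, Elovl3, Far2, Awat1, Awat2, Dgat2l6, Soat1, Mgst1 and Mc5r, listed by name for their roles in the gland, and all 9 were found among the 55488 genes of every library. All 9 also passed the filter on low counts that left 16908 genes for testing. The study set skin of mice with a knockout of Tph1 against skin of wild-type mice, all 3 months old, with 4 libraries for each. The enzyme encoded by Tph1 hydroxylates tryptophan, the slowest step on the way to serotonin outside the brain. Strain, sex, the construction of the Tph1 allele and whether each library came from a different mouse are not given in the sources used here, so every p-value here is set against the spread among libraries, which may be technical. No treatment is named for either genotype.

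A sebaceous gland sits beside the hair follicle, and its cells fill with lipid droplets, burst and release their whole content onto the hair and skin. Fatty acids are made, lengthened and desaturated in these cells, some are reduced to fatty alcohols, and acyltransferases join acids and alcohols into wax esters or acids and sterols into sterol esters. The melanocortin 5 receptor gives the gland a hormonal input, and mice that lack it have less sebum lipid on their coat.

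The 3 acyltransferase genes Awat1, Awat2 and Dgat2l6 lie close together on the X chromosome within 176.0 kb, and the other members lie apart from them. In GRCm38 with GENCODE release M21, Awat2 (ENSMUSG00000031220) occupies chrX:100402221-100442717 on the minus strand, Dgat2l6 (ENSMUSG00000067597) chrX:100524838-100546144 and Awat1 (ENSMUSG00000015665) chrX:100572251-100578205, both on the plus strand. Scd3 (ENSMUSG00000025202) lies at chr19:44203269-44244016 and Elovl3 (ENSMUSG00000038754) at chr19:46131897-46135694, both on the plus strand. Far2 (ENSMUSG00000030303) lies at chr6:148047259-148182758 and Mgst1 (ENSMUSG00000008540) at chr6:138140316-138156755, also on the plus strand. Soat1 (ENSMUSG00000026600) lies at chr1:156424525-156474331 on the minus strand. No member, Mc5r included, shares a chromosome with Tph1.

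The promoters of the acyltransferase neighbours and of Far2, the member whose level was nearest to the rest of the set, are shown for the position of these neighbours and because Awat1, Awat2 and Far2 varied together across libraries, with and without knockout replicate 3. Dgat2l6 did so less without that library. Each runs from 250 bases before to 50 bases after the RefSeq gene start in GRCm38.p6 and is written in the direction of the gene. Awat2 and Mgst1 have 2 RefSeq starts each, of which the one nearest to the GENCODE start was used. Capitals mark the motifs found in it, which are spelled out after the sequences.
Awat1: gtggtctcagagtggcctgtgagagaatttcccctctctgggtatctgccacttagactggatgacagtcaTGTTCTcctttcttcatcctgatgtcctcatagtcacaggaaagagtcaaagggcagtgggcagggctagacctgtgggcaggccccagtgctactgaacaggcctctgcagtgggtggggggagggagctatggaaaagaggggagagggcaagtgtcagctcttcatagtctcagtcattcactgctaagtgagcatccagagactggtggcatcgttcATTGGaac
Awat2: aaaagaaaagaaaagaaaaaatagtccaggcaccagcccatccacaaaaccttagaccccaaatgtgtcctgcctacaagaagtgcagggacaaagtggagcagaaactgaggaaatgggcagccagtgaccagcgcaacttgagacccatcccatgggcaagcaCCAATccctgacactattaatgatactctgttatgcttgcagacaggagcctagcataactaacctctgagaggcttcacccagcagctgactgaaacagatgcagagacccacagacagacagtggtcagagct
Dgat2l6: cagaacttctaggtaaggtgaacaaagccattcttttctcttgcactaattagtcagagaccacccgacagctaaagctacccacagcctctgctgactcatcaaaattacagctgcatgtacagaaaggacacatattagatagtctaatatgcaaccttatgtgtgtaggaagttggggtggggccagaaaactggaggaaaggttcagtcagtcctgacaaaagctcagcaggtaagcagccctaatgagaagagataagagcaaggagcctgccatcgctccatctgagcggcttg
Far2: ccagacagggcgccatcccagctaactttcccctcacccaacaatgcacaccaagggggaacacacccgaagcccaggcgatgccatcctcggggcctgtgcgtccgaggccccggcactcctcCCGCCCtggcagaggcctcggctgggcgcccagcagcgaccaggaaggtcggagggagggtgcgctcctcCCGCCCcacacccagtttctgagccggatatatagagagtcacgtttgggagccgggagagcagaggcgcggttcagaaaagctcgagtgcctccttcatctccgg
These windows are chrX:100571997-100572296 (plus strand) for Awat1, chrX:100442668-100442967 (minus strand) for Awat2, chrX:100524588-100524887 (plus strand) for Dgat2l6 and chr6:148047166-148047465 (plus strand) for Far2. The RefSeq start lies 157 bases from the GENCODE start for Far2 and 211 bases for Mgst1, whose promoter was searched but is not shown. RefSeq promoters were read for 7 of the 9 members. No promoter was listed for Elovl3, and Mc5r was left out of the search.

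Motifs were searched on both strands, and no motif was shared by all 3 acyltransferase neighbours. The CCAAT box (CCAAT) was present in Awat1, as its reverse complement, and in Awat2 and Soat1, thus in 3 of 7 members, against 37.4% of all 32544 promoters. The GC box (GGGCGG) was present in Far2, in Soat1 and in Mgst1, again 3 of 7, against 35.9% of all promoters. The androgen receptor element searched as AGAACA was present in Awat1 alone of the 7, as its reverse complement, against 18.9% of all promoters. The nuclear receptor element AGGTCA (16.2% of all promoters), its PPAR direct repeat with 1 base between the copies (0.0399%, which overlaps the single element), the E-box CACGTG (7.17%) and the TATA box TATAAA (13.6%) were not found in these windows. GC content was 53.7% in the Awat1 window, 49.0% in Awat2, 46.7% in Dgat2l6 and 66.0% in Far2, beside a median of 53.0% over all promoters. These matches describe letters in a window, and no binding was measured.

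Each library held between 20531601 and 24678638 expected counts. Tph1 itself had 0 counts in all 4 knockout libraries and 18, 0, 27 and 11 counts in wild-type replicates 1 to 4, so the library labelled wild type replicate 2 had no Tph1 read, and results are also given without it. Transcripts of Xist were present in all 8 libraries, and Ddx3y, Uty, Kdm5d and Eif2s3y had 0 counts in all 8. One knockout library, replicate 3, stood apart in the sebaceous genes, so results are given with and without it. Over all genes tested, that library was the highest of the 8 in 14.7% and at least 3 times the highest other library in 0.373%. Markers of the gland were present in the tissue, since all 15 listed markers and regulators were expressed enough to test, among them Krt79, a keratin of the gland duct, and Pparg, the nuclear receptor of lipid-forming cells.

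Across libraries the 9 genes shared their highest library, a knockout one. The lowest library was knockout replicate 2 in 5 genes, knockout replicate 1 in 2, knockout replicate 4 in 1 and wild type replicate 3 in 1. Knockout replicate 3 was the highest of all 8 libraries in 9 of 9 genes (14.7% of all genes tested), whereas knockout replicates 1 and 2 lay below every wild-type library in 7 of 9 (11.8% of all genes tested). Summed over the 9 genes, the level was 131.1, 157.8, 1071 and 254.9 CPM (a gene's reads relative to the TMM-adjusted size of its library) in knockout replicates 1 to 4, against 370.3, 267.7, 265.7 and 195.5 CPM in wild-type replicates 1 to 4. The 4 wild-type libraries thus lay between the lowest pair of knockout libraries and the highest one, with knockout replicate 4 among them. In 0 of the 9 genes were the libraries of the genotypes fully apart, against 11% of all genes tested. In bulk skin, a difference in the number of gland cells and one in RNA per gland cell cannot be told apart, in either direction.

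**Figure D1:**
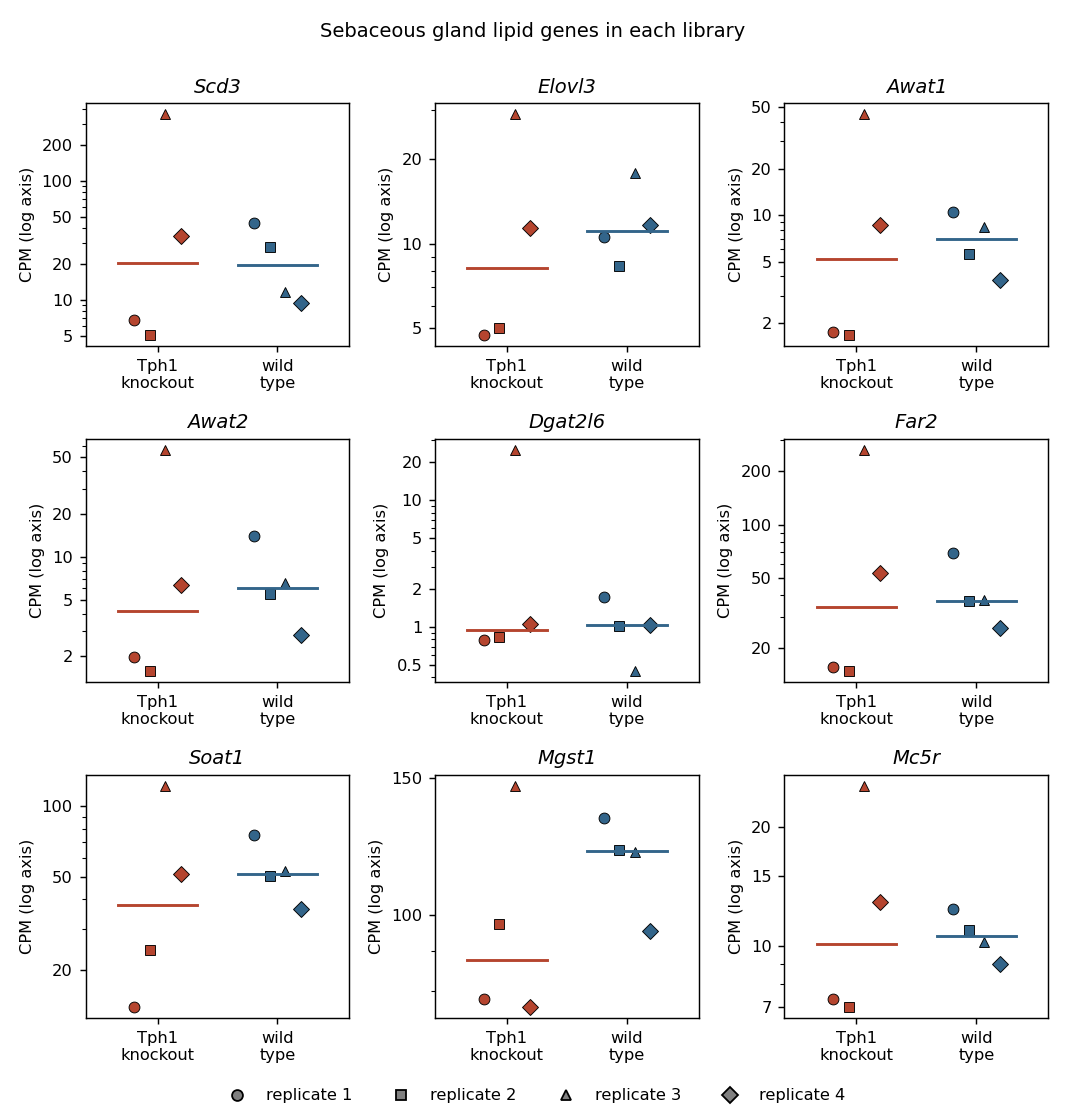
CPM on log axes for the 9 genes in each library, Tph1 knockout left and wild type right, with symbols for replicate number (numbers pair no libraries) and a line at each group's median. Knockout replicate 3 is the top point in every panel, and knockout replicates 1 and 2 lie below all 4 wild-type points in 7 panels.

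Among the genes of fatty acid supply, Scd3 varied most. Scd3 encodes a stearoyl-CoA desaturase that in mouse skin is largely restricted to the sebaceous gland and makes monounsaturated fatty acids. It measured 6.76, 5.04, 360.0 and 34.0 CPM in knockout replicates 1 to 4, against 44.3, 27.7, 11.6 and 9.36 CPM in wild-type replicates 1 to 4. Knockout replicate 3 lay far above all others, at 8.12 times the next library, knockout replicates 1 and 2 lay below all wild-type libraries, and replicate 4 lay within their range. The means were 101.4 ± 172.9 CPM in knockout and 23.2 ± 16.3 CPM in wild type (SD, n = 4 each), and without replicate 3 the knockout mean was 15.3 ± 16.3 CPM (n = 3). The edgeR log2 fold change was 2.12 ± 1.26 (SE, adjusted p = 0.402), and it was -0.61 ± 0.78 without knockout replicate 3 (edgeR adjusted p = 0.706). The wild-type libraries also differed among themselves by 4.73 times, the widest wild-type range but for Awat2.

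Scd3 shares much of its sequence with its neighbours in the desaturase cluster, and its transcript is 90.4% identical to that of Scd1 over 1084 aligned bases. Its expected counts were not whole in any of the 8 libraries, which is what RSEM gives when it divides reads between similar genes. With Scd1, Scd2, Scd3 and Scd4 summed into 1 feature, the log2 fold change was 0.17 (edgeR adjusted p = 0.866), a sum in which Scd1 holds most reads. Scd1, the main stearoyl-CoA desaturase of mouse skin, measured 1070 ± 708.4 CPM in knockout and 1003 ± 236.1 CPM in wild type (SD, n = 4 each).

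Elovl3 encodes a fatty acid elongase of the gland, and mice without it have abnormal sebum and a sparse, water-retaining coat. It measured 4.72, 4.996, 28.9 and 11.4 CPM in knockout replicates 1 to 4, against 10.6, 8.31, 17.8 and 11.7 CPM in wild-type replicates 1 to 4. Again knockout replicate 3 was the highest and replicates 1 and 2 the lowest, but the gap was small, 1.62 times the next library, which here was wild type replicate 3. Its log2 fold change was 0.05 ± 0.54 (SE, edgeR adjusted p = 0.975), and -0.78 ± 0.37 without knockout replicate 3 (edgeR adjusted p = 0.319). Elovl3 was also the member whose direction turned with the most settings, and its value with all libraries lay close to 0.

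Far2 encodes a fatty acyl-CoA reductase that makes the fatty alcohols of wax esters. It measured 15.7, 14.8, 263.5 and 53.0 CPM in knockout replicates 1 to 4, against 68.7, 37.1, 37.2 and 25.9 CPM in wild-type replicates 1 to 4. Knockout replicates 1 and 2 lay below all wild-type libraries, replicate 4 between them, and replicate 3 at 3.84 times the next library. On the log2 scale the fold change was 1.04 ± 0.86 (SE, edgeR adjusted p = 0.553), and -0.60 ± 0.52 without knockout replicate 3 (edgeR adjusted p = 0.563). Its paralogue Far1, 64.4% identical over 1229 aligned transcript bases and expressed in many tissues, measured 28.6 ± 6.24 CPM in knockout and 23.9 ± 7.51 CPM in wild type (SD, n = 4 each), at a log2 fold change of 0.26 ± 0.24 (edgeR adjusted p = 0.591). Expected counts of Far2 were not whole in any of the 8 libraries, and which other sequence shared its reads was not tested.

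In the neighbouring acyltransferase genes knockout replicate 3 was again highest and wild type replicate 1 next, and the low end differed in Dgat2l6. Awat1 encodes a wax ester synthase that joins fatty acyl-CoA to fatty alcohol. It measured 1.76, 1.67, 44.9 and 8.65 CPM in knockout replicates 1 to 4, against 10.4, 5.60, 8.403 and 3.78 CPM in wild-type replicates 1 to 4. In counts, knockout replicate 3 held 1031 reads of Awat1, against 38 and 40 reads in knockout replicates 1 and 2. Knockout replicate 4 lay within the wild-type range, and the groups overlapped. edgeR gave a log2 fold change of 1.01 ± 0.93 (SE, adjusted p = 0.589), and -0.81 ± 0.63 without knockout replicate 3 (edgeR adjusted p = 0.524).

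Awat2 encodes a second wax ester synthase, which also esterifies retinol. It measured 1.99, 1.58, 55.8 and 6.33 CPM in knockout replicates 1 to 4, against 13.95, 5.47, 6.56 and 2.84 CPM in wild-type replicates 1 to 4. As for Awat1, the order ran from knockout replicate 2 at the bottom to knockout replicate 3 at the top, with wild type replicate 1 next to it. Its log2 fold change was 1.18 ± 1.07 (SE, edgeR adjusted p = 0.585), and -1.13 ± 0.64 without knockout replicate 3 (edgeR adjusted p = 0.394).

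Dgat2l6, a gene of the same acyltransferase family as Dgat2, was the lowest member. It had 17, 20, 569 and 23 counts in knockout replicates 1 to 4, against 46, 23, 10 and 23 counts in wild-type replicates 1 to 4. That is 0.787, 0.833, 24.8 and 1.05 CPM in the knockout libraries, against 1.74, 1.02, 0.449 and 1.04 CPM in the wild-type libraries. Of the 9 genes it had the widest gap, with knockout replicate 3 at 14.3 times the next library, and the other 7 libraries ran from 10 to 46 counts. On the log2 scale the fold change was 2.68 ± 1.15 (SE, unadjusted p = 0.0429, edgeR adjusted p = 0.267), and -0.26 ± 0.49 without knockout replicate 3 (edgeR adjusted p = 0.7999).

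The 3 neighbours are paralogues, and their transcripts aligned only in part. Awat1 and Awat2 were 64.9% identical over 833 aligned bases, Awat1 and Dgat2l6 69.3% over 231 bases, and Awat2 and Dgat2l6 69.4% over 209 bases. Their expected counts were whole in all 8 libraries.

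Soat1 encodes the sterol acyltransferase that makes cholesterol esters, in the gland and in many other cells. It measured 13.97, 24.4, 121.4 and 51.2 CPM in knockout replicates 1 to 4, against 75.1, 50.3, 52.8 and 36.4 CPM in wild-type replicates 1 to 4. Knockout replicate 3 was again on top, at 1.62 times wild type replicate 1, and knockout replicates 1 and 2 were lowest. edgeR gave a log2 fold change of -0.02 ± 0.56 (SE, adjusted p = 0.987), and -0.84 ± 0.43 without knockout replicate 3 (edgeR adjusted p = 0.351).

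The effective length of Soat1, the RSEM gene length weighted by the transcripts it assigned reads to, differed between libraries by more than that of any other member. It was 5746, 7266, 3741 and 5868 bases in knockout replicates 1 to 4, against 4132, 3417, 6333 and 5977 bases in wild-type replicates 1 to 4. Libraries rich in sebaceous transcripts, knockout replicate 3 and wild type replicate 1, had short values and knockout replicate 2 the longest, while the library labelled wild type replicate 2 had the shortest of all. The longest Soat1 transcripts in GENCODE are protein-coding ones of 8371 and 2925 bases. Because a shorter length raises the value per length, the TPM of Soat1 (abundance scaled to effective length and library size) differed more than its CPM: it was 2.59, 4.23, 49.7 and 10.3 in knockout replicates 1 to 4, against 26.3, 19.1, 10.9 and 6.90 in wild-type replicates 1 to 4. Scd3 varied less, between 2726 and 3344 bases in knockout and between 2603 and 3344 bases in wild type. Dgat2l6 ran from 2122 to 2972 bases in knockout and from 1620 to 2886 bases in wild type, on few reads.

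**Figure D2:**
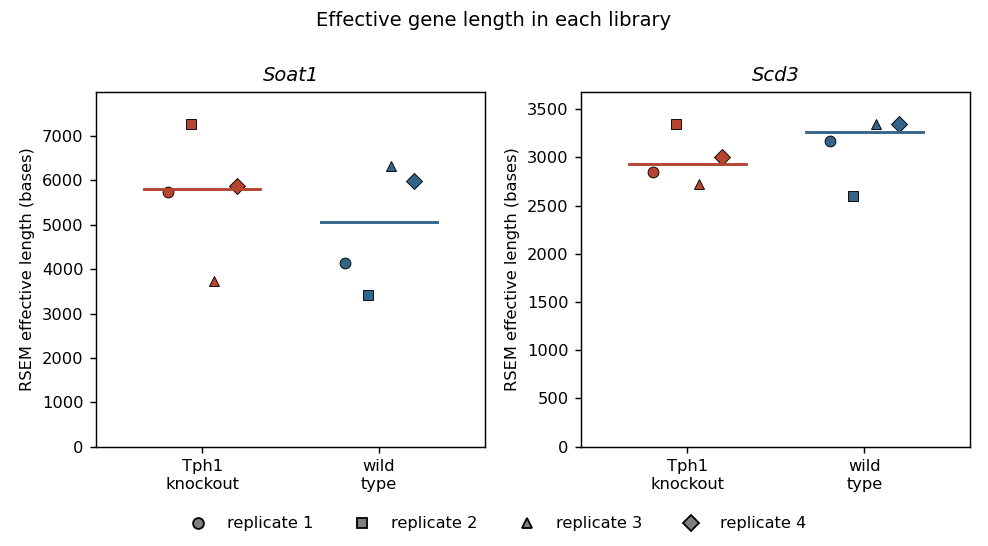
RSEM effective length in bases of Soat1 and Scd3 in each library, Tph1 knockout left and wild type right, with a line at each group's median. Soat1 ranges from 3417 to 7266 bases over the 8 libraries, and in knockout the shortest value is that of replicate 3.

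Mgst1, a membrane-bound glutathione transferase abundant in sebaceous cells and present in many others, was the least variable member. It measured 78.2, 97.4, 146.5 and 76.4 CPM in knockout replicates 1 to 4, against 133.2, 121.3, 120.7 and 95.4 CPM in wild-type replicates 1 to 4. Here 3 of the 4 knockout libraries lay below 3 of the 4 wild-type libraries, but knockout replicate 2 lay above wild type replicate 4 and knockout replicate 3 above all. The means were 99.6 ± 32.7 CPM in knockout and 117.6 ± 15.9 CPM in wild type (SD, n = 4 each). edgeR put the log2 fold change at -0.24 ± 0.21 (SE, adjusted p = 0.578). Without knockout replicate 3 the knockout mean was 84.0 ± 11.7 CPM (n = 3) and the log2 fold change -0.49 ± 0.16 (unadjusted p = 0.0123, edgeR adjusted p = 0.179).

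Mc5r (ENSMUSG00000007480) encodes the melanocortin 5 receptor, a G protein-coupled receptor through which melanocortin peptides act on the gland, and lies at chr18:68337596-68342446 on the plus strand in GRCm38. It measured 7.31, 6.995, 25.4 and 12.9 CPM in knockout replicates 1 to 4, against 12.4, 10.9, 10.2 and 9.001 CPM in wild-type replicates 1 to 4. The wild-type libraries were close together, within 1.37 times of each other, while the knockout libraries spread to both sides of them over 3.63 times. Mc5r was the only member in which the second highest library was also knockout, replicate 4. Its log2 fold change was 0.31 ± 0.38 (SE, edgeR adjusted p = 0.697), and -0.23 ± 0.25 without knockout replicate 3 (edgeR adjusted p = 0.651).

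Over all 8 libraries none of the 9 genes passed the edgeR quasi-likelihood test at an adjusted p under 0.05, against 0.651% of all genes tested (110 of 16908, with 0.532% lower and 0.118% higher in knockout). At an unadjusted p under 0.05 there was 1 of 9, Dgat2l6, against 17.6% of all genes. DESeq2 called 0 of the 6 genes to which it gave an adjusted p (0.588 to 0.983), against 5.95% of all genes. It gave no adjusted p for Scd3, Awat2 and Dgat2l6, which could therefore not be called. Of the log2 fold changes 7 were positive and 2 negative (46.9% negative over all genes), with a median of 1.01 beside 0.03 over all genes tested. Without knockout replicate 3 all 9 were negative, with a median of -0.61 beside 0.01 over all genes, of which 48.5% were negative. In that fit 0 of 9 passed the edgeR test, against 0.991% of all genes, and 1 of 9, Mgst1, had an unadjusted p under 0.05, against 17.2% of all genes in either direction and 9.92% on the lower side. Leaving out this 1 library turned the sign of the 7 positive genes, while Soat1 and Mgst1 were negative in both fits. Soat1, near 0 with all libraries, was positive without knockout replicate 1, knockout replicate 2 or wild type replicate 1, and Elovl3 was negative also without wild type replicate 1 or the library labelled wild type replicate 2. Without the library labelled wild type replicate 2, 6 were positive and 3 negative, with a median of 0.91 and none called by edgeR.

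**Figure D3:**
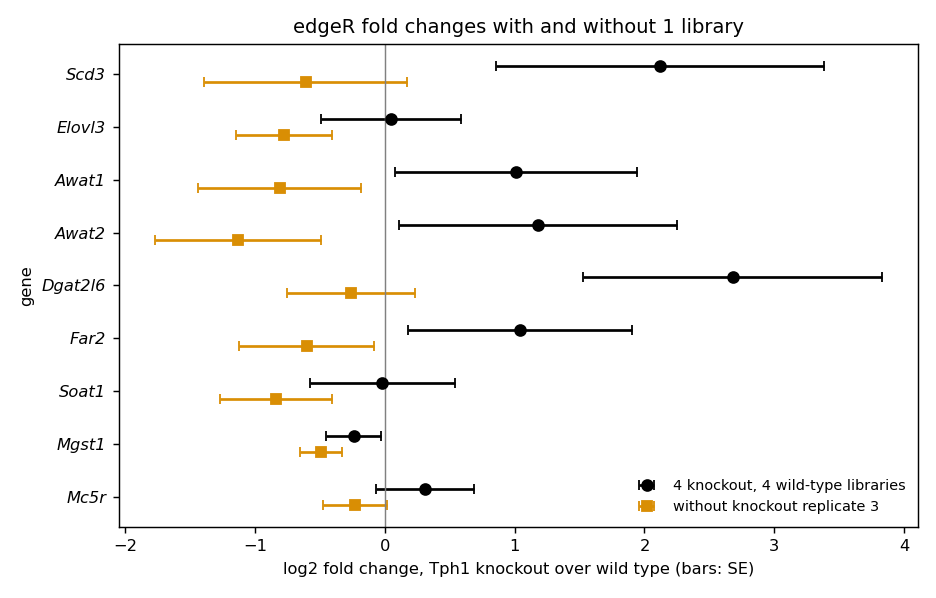
edgeR log2 fold change of each gene, Tph1 knockout over wild type, with SE bars, over all 8 libraries (circles) and without knockout replicate 3 (squares). All 9 squares lie below 0, whereas 7 of the 9 circles lie above it.

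With all 8 libraries, the spread among knockout libraries was larger than among wild-type libraries for every one of the 9 genes. Knockout replicate 3 was the highest library each time. The highest knockout library was 71.5 times the lowest for Scd3, 35.3 times for Awat2, 31.5 times for Dgat2l6, 27.0 times for Awat1 and 17.8 times for Far2. In wild type the same ratio was 4.73 for Scd3, 4.92 for Awat2, 3.87 for Dgat2l6, 2.75 for Awat1 and 2.65 for Far2. It was smaller for the other 4 genes, at 8.69 in knockout and 2.06 in wild type for Soat1, 6.13 in knockout and 2.15 in wild type for Elovl3, 3.63 in knockout and 1.37 in wild type for Mc5r and 1.92 in knockout and 1.40 in wild type for Mgst1. In 5 of the 9 genes (Scd3, Awat1, Awat2, Dgat2l6 and Far2) knockout replicate 3 stood alone at the top of its group, with a gap to the next knockout library of 0.839 to 0.989 of the group's range. Over all genes tested, 2.12% had knockout replicate 3 that far out on the high side. With that library left out (n = 3), the knockout SD was below the wild-type SD for several members. These were Dgat2l6 (0.139 against 0.528 CPM), Awat2 (2.63 against 4.76 CPM), Mgst1 (11.7 against 15.9 CPM) and Elovl3 (3.77 against 4.08 CPM). It was above for Awat1, Far2, Soat1 and Mc5r, and was 16.3 CPM in both groups for Scd3. How many of all genes tested had a larger spread in knockout was not computed.

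Knockout replicates 1 and 2 were as regular at the low end. Replicate 1 was among the lowest 2 of the 8 libraries in 9 of 9 genes and replicate 2 in 7 of 9. Wild type replicate 1 was the second highest library in 7 of 9. On the deposited scales, knockout replicate 3 was highest in 9 of 9 genes in TPM and in 9 of 9 in the authors' normalized matrix, and in 8 of 9 in expected counts, where Mgst1 was higher in wild type replicate 1. Knockout replicates 1 and 2 lay below all wild-type libraries in 8 of 9 genes in TPM in 9 of 9 in that matrix and in 7 of 9 in expected counts.

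Compared per length, Mgst1 was by far the most abundant of the 9 transcripts. Its median was 169.4 TPM in knockout and 295.3 TPM in wild type, and its lowest library, at 146.7 TPM, lay above the highest library of each other member outside knockout replicate 3. Medians of Far2 were 12.3 TPM in knockout and 14.5 TPM in wild type, those of Soat1 7.27 TPM in knockout and 14.98 TPM in wild type, and those of Scd3 7.95 TPM in knockout and 9.16 TPM in wild type. Elovl3 followed at 6.03 TPM in knockout and 8.45 TPM in wild type, Awat1 at 4.97 TPM in knockout and 7.32 TPM in wild type and Awat2 at 3.22 TPM in knockout and 5.31 TPM in wild type. Mc5r was at 3.21 TPM in knockout and 3.66 TPM in wild type. From Far2 down to Mc5r, neighbours in this order overlapped in their ranges over the wild-type libraries, so their order is not resolved. Dgat2l6 was lowest, at 0.465 TPM in knockout and 0.490 TPM in wild type, and its wild-type range of 0.36 to 1.32 TPM lay below that of every other member. In knockout replicate 3 the order differed, with Scd3 at 202.0 TPM and Far2 at 121.5 TPM next to Mgst1 at 385.2 TPM.

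The members varied together across libraries to different degrees. As a description over 8 libraries that share their depth and scaling, Pearson's r of each gene's log2(CPM + 1) with the mean of the other 8 genes was 0.986 for Far2, 0.985 for Awat1 and Awat2, 0.971 for Mc5r, 0.950 for Scd3 and 0.922 for Soat1. It was lower for Elovl3 (0.852), Dgat2l6 (0.828) and Mgst1 (0.689). Over the 7 libraries without knockout replicate 3 it was 0.965 for Soat1, 0.962 for Awat1, 0.958 for Far2, 0.953 for Awat2, 0.906 for Mc5r, 0.840 for Scd3, 0.688 for Elovl3 and 0.514 for Mgst1. Dgat2l6, with at most 46 counts in those libraries, was at 0.405.

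Around these members, the wider machinery of fatty acid synthesis, elongation and desaturation showed the same high library but no called gene. Of 21 listed genes 20 were tested, 10 with a higher and 10 with a lower value in knockout. In either direction 0 passed the edgeR test (0.651% of all genes), with 2 at an unadjusted p under 0.05 (17.6% of all genes). The median log2 fold change was 0.00, and -0.35 without knockout replicate 3, when 18 of 20 were lower. Knockout replicate 3 was the highest of 8 libraries in 16 of the 20 genes. Summed over the list, the level was 1858, 2334, 5610 and 2875 CPM in knockout replicates 1 to 4, against 3805, 3269, 2671 and 2857 CPM in wild-type replicates 1 to 4.

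Elovl1, the elongase of saturated very long chains that skin ceramides contain, departed from that pattern. It measured 77.9, 106.2, 160.3 and 127.8 CPM in knockout replicates 1 to 4, against 281.9, 239.6, 230.6 and 254.1 CPM in wild-type replicates 1 to 4. All 4 knockout libraries lay below all 4 wild-type libraries, replicate 3 included. Groups were apart in either direction in 11% of all genes tested. The log2 fold change of Elovl1, -1.09 ± 0.21 (SE), had an edgeR adjusted p of 0.0547 and so missed the threshold. It fell by 1.27 ± 0.19 on the log2 scale without knockout replicate 3, where it passed (edgeR adjusted p = 0.0256). Over all 8 libraries DESeq2 called it (adjusted p = 0.000102), as it did 5.95% of all genes. Suprabasal keratinocyte markers were lower in the same libraries (3103 to 5247 CPM in knockout and 7616 to 10330 CPM in wild type, summed), and their part in this value was not tested.

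Elovl5, which elongates polyunsaturated fatty acids, was the only gene of these lists among the 10 genes nearest to the members' pattern after genotype means were subtracted. It measured 36.3, 34.4, 263.4 and 59.0 CPM in knockout replicates 1 to 4, against 75.0, 57.7, 44.8 and 38.4 CPM in wild-type replicates 1 to 4. Knockout replicate 3 was 3.51 times the next library and the rest of the groups overlapped. Its log2 fold change was 0.86 ± 0.61 (SE, edgeR adjusted p = 0.482), and -0.32 ± 0.27 without knockout replicate 3 (edgeR adjusted p = 0.552). Acacb, an acetyl-CoA carboxylase of oxidative tissue, measured 167.1 ± 60.4 CPM in knockout and 92.2 ± 35.8 CPM in wild type (SD, n = 4 each; log2 fold change 0.86 ± 0.34, edgeR adjusted p = 0.236). Without knockout replicate 3 the value of Acacb was 0.65 ± 0.35 (edgeR adjusted p = 0.374).

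Genes of neutral lipid assembly and lipid droplets were less marked by knockout replicate 3. Of 21 listed genes 18 were tested, 6 higher and 12 lower in knockout. edgeR called 0, and 1 had an unadjusted p under 0.05 (17.6% of all genes). That was Lpin1, a phosphatidic acid phosphatase of triglyceride synthesis, at 146.7 ± 28.3 CPM in knockout and 84.7 ± 27.5 CPM in wild type (SD, n = 4 each). Its log2 fold change was 0.79 ± 0.24 (SE, edgeR adjusted p = 0.158), and DESeq2 called it (adjusted p = 0.0416). It was 0.73 ± 0.26 without knockout replicate 3 (edgeR adjusted p = 0.216). The list had a median log2 fold change of -0.08, and of -0.20 without knockout replicate 3, which was the highest library in 8 of 18 genes. Dgat1, which makes triglycerides, had a log2 fold change of -0.33 ± 0.17 (edgeR adjusted p = 0.349) and Mogat1, a monoacylglycerol acyltransferase, one of -0.73 ± 0.44 (edgeR adjusted p = 0.406).

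Among sebaceous gland markers and regulators all 15 listed genes were tested, with 5 higher and 10 lower in knockout. edgeR called 0, and 4 had an unadjusted p under 0.05, against 17.6% of all genes. The median log2 fold change was -0.07, and -0.06 without knockout replicate 3, which was the highest library in 3 of 15 genes. Krt79 measured 130.9, 131.1, 510.9 and 236.0 CPM in knockout replicates 1 to 4, against 519.5, 303.5, 158.0 and 169.5 CPM in wild-type replicates 1 to 4. It was thus highest in wild type replicate 1, next in knockout replicate 3 and lowest in knockout replicates 1 and 2. Its log2 fold change was -0.19 ± 0.51 (SE, edgeR adjusted p = 0.873). Lrig1, a stem cell marker of the upper follicle from which the gland is renewed, measured 109.2, 132.2, 135.8 and 133.5 CPM in knockout replicates 1 to 4, against 89.6, 99.9, 86.8 and 94.2 CPM in wild-type replicates 1 to 4. Every knockout library lay above every wild-type library for Lrig1, and groups were apart in either direction in 11% of all genes. On the log2 scale the fold change was 0.46 ± 0.12 (SE, edgeR adjusted p = 0.105), and DESeq2 called it (adjusted p = 0.00439). It was 0.43 ± 0.13 without knockout replicate 3 (edgeR adjusted p = 0.154).

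Myc, a transcription factor that drives cell growth and gland enlargement when overexpressed in mouse skin, measured 61.2, 77.5, 45.7 and 48.8 CPM in knockout replicates 1 to 4, against 178.3, 79.1, 223.8 and 107.8 CPM in wild-type replicates 1 to 4. The groups did not overlap for Myc (11% of all genes), but knockout replicate 2 and the library labelled wild type replicate 2 nearly met. Its log2 fold change was -1.34 ± 0.32 (SE, edgeR adjusted p = 0.0969), and DESeq2 called it (adjusted p = 0.00261). It was -1.24 ± 0.36 without knockout replicate 3 (edgeR adjusted p = 0.160). Myc is also an immediate early gene, and the listed immediate early and heat shock genes summed to 1400 to 4237 CPM in knockout and 2065 to 14460 CPM in wild type. Their part in the value of Myc was not tested. Mlxipl, a glucose-responsive regulator of lipid synthesis, had a log2 fold change of 0.70 ± 0.30 (edgeR adjusted p = 0.262). Pparg measured 17.7 ± 8.37 CPM in knockout and 28.5 ± 5.18 CPM in wild type (SD, n = 4 each; log2 fold change -0.69 ± 0.31, edgeR adjusted p = 0.277).

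Few other genes of the melanocortin system were expressed in these libraries. Of 12 listed ligands, receptors and accessory proteins 11 were matched and 3 tested, all lower in knockout. edgeR called 0, and 1 had an unadjusted p under 0.05 (17.6% of all genes). Mrap, the accessory protein that carries melanocortin 2 receptor to the cell surface, measured 13.1, 12.7, 9.63 and 4.96 CPM in knockout replicates 1 to 4, against 16.5, 19.2, 13.5 and 15.8 CPM in wild-type replicates 1 to 4. All knockout libraries lay below all wild-type libraries (11% of all genes were apart in either direction), at a log2 fold change of -0.69 ± 0.28 (edgeR adjusted p = 0.246). Mc2r, the receptor for adrenocorticotropic hormone, had a log2 fold change of -0.56 ± 0.51 (edgeR adjusted p = 0.585) and Cpe, a peptide-processing carboxypeptidase, one of -0.19 ± 0.12 (edgeR adjusted p = 0.449). Knockout replicate 3 was the highest library in none of these 3 genes, unlike for Mc5r, and without it the median log2 fold change of the 3 was -0.66, beside -0.56 with all libraries. Adipocyte markers summed to 1974 to 4921 CPM in knockout and 3904 to 5141 CPM in wild type. Their part in the values of Mrap and Mc2r was not tested.

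Of 11 listed genes of steroid hormone conversion 10 were matched and 5 tested, 1 higher and 4 lower in knockout. edgeR called 0, and 1 had an unadjusted p under 0.05 (17.6% of all genes). Hsd3b1, Hsd17b3, Hsd17b6 and Cyp19a1 had 0 counts in every library. Srd5a3, a polyprenol and steroid reductase, measured 15.8, 19.4, 17.8 and 17.1 CPM in knockout replicates 1 to 4, against 21.0, 20.6, 27.6 and 20.3 CPM in wild-type replicates 1 to 4, with no overlap of the groups (log2 fold change -0.35 ± 0.14 SE, edgeR adjusted p = 0.243). Srd5a1, the 5-alpha reductase of skin that makes dihydrotestosterone, had a log2 fold change of -0.28 ± 0.13 (edgeR adjusted p = 0.308). Cyp11a1, the first enzyme of steroid synthesis, was at 0.487 ± 0.372 CPM in knockout and 0.955 ± 0.777 CPM in wild type (SD, n = 4 each, edgeR adjusted p = 0.480). Without knockout replicate 3 the median log2 fold change of the 5 steroid genes was -0.49, beside -0.28 with all libraries. DESeq2 called 0 genes of the melanocortin list and 0 of the steroid list.

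**Figure D4:**
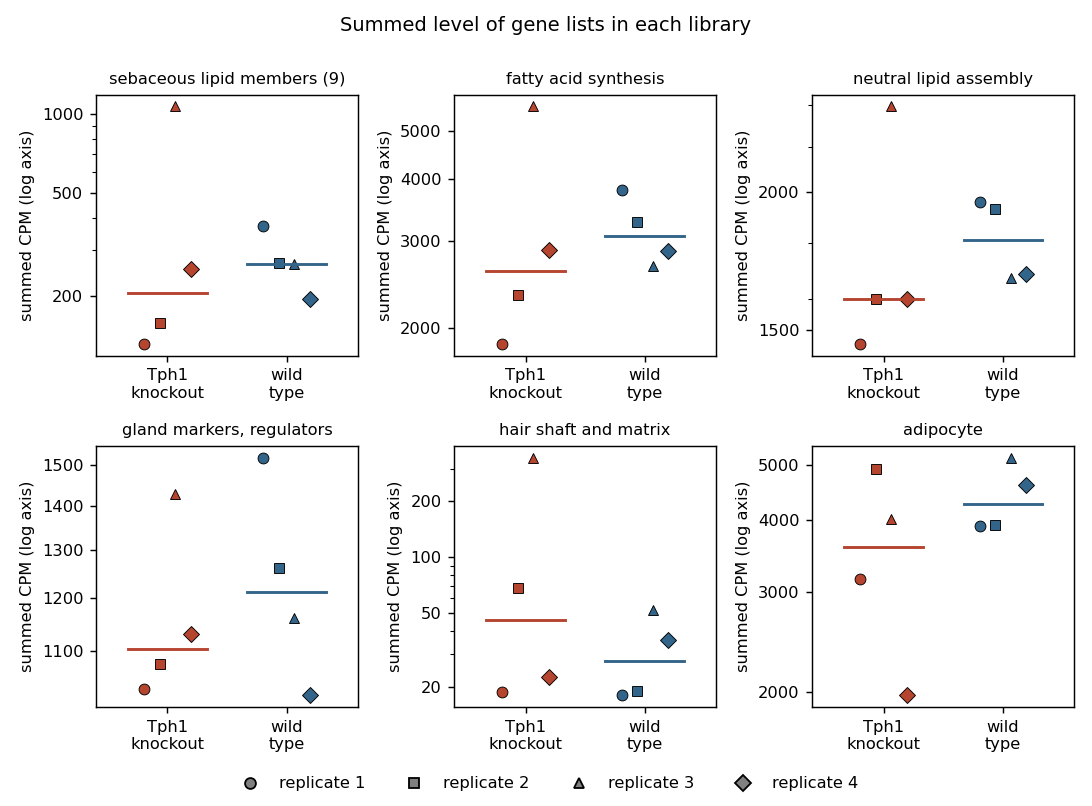
Summed CPM on log axes of 6 gene lists in each library, Tph1 knockout left and wild type right, with a line at each group's median. Knockout replicate 3 is the top point for the sebaceous genes, the fatty acid genes, the neutral lipid genes and the hair genes. For gland markers and regulators the top point is wild type replicate 1, and for adipocyte markers wild type replicate 3.

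Markers of other skin cells also differed between these libraries, and their part in the sebaceous values was not tested. Beside the counts of these marker lists, 0.651% of all genes were called by edgeR, 5.95% by DESeq2, and 17.6% had an unadjusted p under 0.05. Hair shaft and matrix markers, of which 9 of 10 were matched and 7 tested (7 higher in knockout, 0 called by edgeR or DESeq2, 3 at an unadjusted p under 0.05), summed to 18.9, 68.7, 342.2 and 22.7 CPM in knockout replicates 1 to 4, against 18.1, 19.2, 51.8 and 36.0 CPM in wild-type replicates 1 to 4. Knockout replicate 3 was thus 4.98 times the next library for hair genes too. The next library, however, was knockout replicate 2, which was among the lowest for the sebaceous genes, and wild type replicate 1, second highest in 7 sebaceous genes, was lowest for hair genes. Without knockout replicate 3 the median log2 fold change of the hair list was 0.35, against 2.06 with all libraries.

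Adipocyte markers, 12 of 12 tested with 2 higher, 10 lower, 0 called by edgeR or DESeq2 and 2 at an unadjusted p under 0.05, summed to between 1974 and 4921 CPM in knockout and between 3904 and 5141 CPM in wild type. Their highest library was wild type replicate 3, and knockout replicate 3 was at 0.781 times it. Skeletal muscle markers, 8 of 8 higher with 0 called by edgeR, 1 by DESeq2 (Myh1) and 1 at an unadjusted p under 0.05, ran from 45670 to 83650 CPM in knockout and from 11460 to 76970 CPM in wild type. Suprabasal keratinocyte markers, of which 5 of 5 were lower and 2 passed the edgeR test (Lor and Krtdap), had 4 called by DESeq2 and 5 at an unadjusted p under 0.05. Their sum did not overlap between the genotypes, but Krt10 and Flg did. Basal keratinocyte markers, 1 higher and 4 lower with 0 called by edgeR or DESeq2 and 0 at an unadjusted p under 0.05, ran from 7239 to 13700 CPM in knockout and from 10780 to 21080 CPM in wild type, and knockout replicate 3 was the lowest library.

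Leukocyte markers, 1 higher and 4 lower with 0 called by edgeR or DESeq2 and 2 at an unadjusted p under 0.05, ran from 26.1 to 84.8 CPM in knockout and from 55.7 to 113.5 CPM in wild type, with knockout replicate 3 and wild type replicate 1 the highest of their groups, as for the sebaceous genes. Fibroblast markers, 2 higher and 3 lower with 0 called by edgeR or DESeq2 and 0 at an unadjusted p under 0.05, ran from 500.1 to 1509 CPM in knockout and from 724.3 to 2701 CPM in wild type, with the same pair of libraries highest. Immediate early and heat shock genes, 11 of 11 lower with 1 called by edgeR (Nr4a1), 6 by DESeq2 and 11 at an unadjusted p under 0.05, summed to between 1400 and 4237 CPM in knockout and between 2065 and 14460 CPM in wild type. Of 5 mammary gland markers, the milk protein genes Csn1s1, Csn2, Wap and Lalba had 0 counts in every library, and Csn3 reached at most 5.35 CPM, in wild type replicate 3.

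Outside the members, 13621 tested genes with a mean of at least 1 CPM were ranked by how closely they followed the mean standardised level of the 9 genes. The 10 nearest over 8 libraries had Pearson's r between 0.972 and 0.994, and without knockout replicate 3, over 7 libraries, between 0.915 and 0.994. They were Rdh11, Ciita, Aldh1a7, Tmem164, St6gal1, Rmdn3, Panx3, Pnpla5, Tlcd2 and Cntn1. After subtraction of each genotype's mean, 7 of these remained among the 10 nearest, with Avpr1a, Elovl5 and Tyrp1 as the others, and r ran from 0.984 to 0.997. These are descriptions of a ranking over few libraries that share depth and scaling.

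Rdh11, a retinol dehydrogenase, was the nearest gene over all libraries. It measured 14.6, 15.9, 64.7 and 24.4 CPM in knockout replicates 1 to 4, against 34.3, 22.6, 26.7 and 21.3 CPM in wild-type replicates 1 to 4. As in the members, knockout replicate 3 was highest, wild type replicate 1 next and knockout replicates 1 and 2 lowest. Pnpla5, a lipase of the patatin family, measured 3.79, 3.29, 50.1 and 13.9 CPM in knockout replicates 1 to 4, against 14.1, 8.75, 9.08 and 5.27 CPM in wild-type replicates 1 to 4, at a log2 fold change of 0.93 ± 0.77 (edgeR adjusted p = 0.547). Avpr1a, a vasopressin receptor, measured 4.67, 4.58, 20.5 and 8.24 CPM in knockout replicates 1 to 4, against 5.22, 4.00, 3.64 and 2.93 CPM in wild-type replicates 1 to 4, and its log2 fold change of 1.27 ± 0.47 (edgeR adjusted p = 0.219) did not pass either.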

How the data were processed

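Dorsal skin RNA was extracted with a Qiagen column kit and made into NEBNext Ultra libraries, per the labels' protocols, a kit that does not mark strand. Build GRCm38, STAR 2.7.6a, RSEM 1.31, DESeq and DESeq2 are listed in the submitters' processing notes, without their roles, and Ensembl release 101 in the labels. The deposited expected counts are RSEM estimates of reads per gene, not normalized, and 10.7% to 11.5% of genes in a library were not whole. The deposited TPM values and effective lengths, per the file headers, were used for levels per length and as an alternative scale. The deposited FPKM values entered no test. The authors' matrix of a signal that the labels call normalized by DESeq2 was used only for the order of libraries.

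After rounding, expected counts entered edgeR 4.0.16 (R 4.3.3). The fit used filterByExpr (minimum count 10, minimum total 15), TMM scaling and the robust quasi-likelihood test, with genotype as its only term and Benjamini-Hochberg adjustment over 16908 genes at 0.05. DESeq2 1.42.0 and limma 3.58.1 gave alternatives, and the fit was tested on simulated data. Transcripts were compared with BLAST 2.17.0. The members and lists (fatty acid synthesis, neutral lipid, gland markers, melanocortin, steroid, cell type and handling markers) were chosen with earlier results of these data known. Genes named are the members, Tph1, called genes and the 3 smallest p of each pathway list, and the 10 genes nearest the members' pattern in either ranking. Those named outside this rule (Scd1, Far1, Pparg, Krt79, Lor, Krtdap, Krt10, Flg, Nr4a1, Myh1, Xist, Csn3 and genes at 0) were chosen after their values were seen. Replicate numbers follow record order and pair no libraries. No 2 libraries of a group agreed within sampling noise (chi-square per gene 33.0 to 243.5).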

Additional observations from a re-analysis of the deposited data

Results flagged for a closer look

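In a search of 104 groups of 4 libraries (named genes and summed lists), 20 had a library whose gap to its neighbour, divided by the group's range, exceeded Dixon's 95% critical value. About 1 in 20 groups would exceed it by chance if they were independent and normally distributed. Here CPM was not log-transformed, the groups share libraries, and members and lists were chosen with earlier results known. No excess over chance can therefore be read from these counts. In 13 of the 20 the library was knockout replicate 3, on the high side. The named genes include 12 chosen only for following the members' pattern, in which this library is the extreme, so their share of these counts is in part set by that choice. Without them, 16 of 80 groups had such a library, in 10 of them knockout replicate 3 on the high side. Among members this share of the range was 0.989 for Dgat2l6, 0.918 for Scd3, 0.912 for Awat2, 0.846 for Far2 and 0.839 for Awat1. For the summed 9 genes it was 0.868. The same library stood out for Elovl5 (0.892), Ciita (0.842), Tlcd2 (0.841) and Tyrp1 (0.830), and for the summed neutral lipid genes (0.848), hair markers (0.846) and leukocyte markers (0.863). Knockout replicate 1 was low for Lrig1 (0.864). Wild type replicate 1 was high for Cyp11a1 (0.913) and Tyrp1 (0.893), and for summed suprabasal (0.830), leukocyte (0.887) and fibroblast markers (0.858). Wild type replicate 3 was high for Srd5a3 (0.906).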

How the results depend on the processing

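No member was called in any setting. DESeq2 gave no adjusted p for Scd3, Awat2 and Dgat2l6, with or without independent filtering, so these genes could not be called there. Of 170 member values under alternatives, 146 kept their direction and 24 turned. Without 1 library, log2 fold changes ran from -0.81 to 1.39 for Awat1, -1.13 to 1.73 for Awat2, -0.26 to 3.06 for Dgat2l6, -0.78 to 0.32 for Elovl3, -0.60 to 1.39 for Far2, -0.23 to 0.52 for Mc5r, -0.61 to 2.64 for Scd3 and -0.84 to 0.29 for Soat1, each lowest without knockout replicate 3. Soat1 was positive without knockout replicate 1 (0.29), knockout replicate 2 (0.21) or wild type replicate 1 (0.18), and Elovl3 negative without wild type replicate 1 (-0.01) or the library labelled wild type replicate 2 (-0.10). Without both that library and knockout replicate 3, values were -0.92 for Awat1, -1.26 for Awat2, -0.29 for Dgat2l6, -0.94 for Elovl3, -0.68 for Far2, -0.23 for Mc5r, -0.53 for Scd3 and -0.89 for Soat1. On log2(TPM + 1) limma gave -0.038 for Awat1 and -0.24 for Elovl3, and on log2(TPM + 0.1) -0.20 for Awat1, -0.12 for Awat2 and -0.32 for Elovl3. The member median of 1.01 ran from -0.61 to 1.39 without 1 library and was -0.68 without both, -0.12 on log2(TPM + 0.1), 0.03 on log2(TPM + 1), 0.31 with Scd1 to Scd4 summed and 0.67 with a filter of 1 CPM in 4 libraries. The 110 genes called by edgeR became 984 by DESeq2 (979 with no independent filtering), 28 and 29 on TPM with pseudocounts 1 and 0.1, 8 to 170 without 1 library and 167 without both. Called pathway genes, 0 by edgeR, were 1 with no low count filter, 4 by DESeq2 with or without independent filtering, 0 to 1 without 1 library and 1 without both. The 4 were 1 of 20 fatty acid genes tested, 1 of 18 neutral lipid genes and 2 of 15 gland markers, beside 5.95% of all genes. The causes of these changes between settings were not tested. The 1 CPM filter used CPM of library sizes without TMM, on which Dgat2l6 did not reach 1 CPM in 4 libraries and so has no value. Scaling by RLE, upper quartile or effective length turned no member. No paired analysis was possible because the labels give the genotypes no shared replicate numbers. Dgat2l6 had as few as 10 counts, and the part of depth in its interval was not tested. Its SE was 1.15 over all libraries and 0.49 without knockout replicate 3, beside 0.78 for Scd3 in the latter fit.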
